A study of Mus musculus with 3 samples.

Results

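The genes described here encode the subunits of oxidative phosphorylation, measured by RNA sequencing in mouse CAD cells. Members were chosen by name and position, not by their values. Rows of the deposited gene table were taken where an alias matched a fixed symbol pattern, together with every gene cluster on the mitochondrial chromosome. The pattern covered symbols of NADH dehydrogenase (Nduf), succinate dehydrogenase (Sdh), the cytochrome bc1 complex (Uqcr), cytochrome c oxidase (Cox4 to Cox8) and ATP synthase (Atp5). It leaves out some subunits, among them Ndufab1, Atp5o and Cyc1. Where a symbol had several rows the one with the highest mean was kept. This gave 87 members of 26834 rows, of which 79 were nuclear genes and 8 were mitochondrial clusters. The nuclear members comprised 36 genes of complex I, 4 of complex II, 8 of complex III, 17 of complex IV and 14 of complex V.

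CAD is a catecholaminergic neuroblastoma line of the mouse central nervous system. The cells had received siRNAs against Ptbp1 and Ptbp2 together, siRNAs against Ptbp1 alone, or control siRNAs, and were collected 72 hours after transfection. Ptbp1 and Ptbp2 encode polypyrimidine tract binding proteins, paralogous regulators of splicing, the second of which is typical of neurons and their precursors. All 3 groups were the same wild-type line carried through the same lipid transfection, and each group had 1 library, so no difference below has a replicate check. Intervals cover counting error only, and PCR copies are not independent molecules.

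Oxidative phosphorylation moves electrons from NADH and succinate through complexes I to IV of the inner mitochondrial membrane to oxygen, and ATP synthase, complex V, uses the proton gradient that this builds. The complexes are mosaics: a small set of hydrophobic core subunits is encoded by mitochondrial DNA, and all other subunits, including the whole of complex II, are encoded in the nucleus and imported. Neurons rely on this pathway for most of their ATP, and several complex IV subunits exist as alternative genes, a widely expressed form and a form known mainly from heart, muscle, lung or testis.

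The libraries held 14242557 reads in gene clusters after both siRNAs, 16899510 after Ptbp1 siRNA and 16011365 in control cells. The Ptbp1 read value was 1516 after both siRNAs, 1486 after Ptbp1 siRNA and 7191 in control cells. That of Ptbp2 was 633 after both siRNAs, 3044 after Ptbp1 siRNA and 784 in control cells, so Ptbp2 was far lower after both siRNAs than after Ptbp1 siRNA, with a difference of -1.98, and close to control, with one of -0.20. Of 14 markers of catecholaminergic neuroblastoma, 13 reached 1 CPM, the read value scaled to library size, in the higher library of each pair. Their median difference between both siRNAs and control was 0.05, with 7 of 13 above 0. The other 6 lay below 0, the lowest being Stmn2 at -0.48, and Th, the rate-limiting enzyme of catecholamine synthesis, was at -0.23. Dbh, which makes noradrenaline, at 1.22, and the transcription factor Phox2a, at 1.05, were called higher at 2-fold. Gap43, a growth cone protein, at 0.76, was called at 1.5-fold. At 2-fold 2 of 13 were thus higher and 0 lower, where 1.11% and 2.67% of all genes tested were. At 1.5-fold 3 were higher and 0 lower, where 7.46% and 9.86% of all genes were. The part of these marker differences in the results below was not tested. In whole-culture RNA, fewer cells of a kind and less RNA per cell cannot be told apart.

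The mitochondrial clusters need a map, because several hold more than 1 gene. In order along the mitochondrial chromosome of the mm9 build, they covered mt-Rnr1, then mt-Rnr2 with mt-Nd1, mt-Nd2, mt-Co1, mt-Co2, mt-Atp8 with mt-Atp6, mt-Nd4l with mt-Nd4, and last a cluster with 63.5% of mt-Nd5 and all of mt-Nd6 and mt-Cytb. Of the 13 annotated protein genes, 11 lay in a cluster, and mt-Co3 and mt-Nd3 were in none and were not analysed here. mt-Nd6 lies on the other strand, and these libraries do not mark strand, so its reads were not separated. The stretch below shows why mt-Atp8 and mt-Atp6 form 1 cluster: their reading frames share the 43 bases in capitals, at chrM:7927-7969, within chrM:7911-7985.
mt-Atp8 and mt-Atp6: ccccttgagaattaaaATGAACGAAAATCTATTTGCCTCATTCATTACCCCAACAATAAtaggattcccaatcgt
The same stretch occurs without a mismatch on chromosome 1, inside a nuclear copy of this mitochondrial segment at chr1:24620811-24621652. Over 840 bases compared, the copy and the mitochondrial sequence had 0 mismatches. The nuclear copy, listed as Gm10925, held 163425 reads after both siRNAs, 158149 after Ptbp1 siRNA and 135952 in control cells, and the mitochondrial cluster held 163312, 158039 and 135937. Both places list nearly the same read value, and the nuclear row was not counted as a member. Of the 8 clusters 6 have at least 10% of their 36-base windows in the nuclear genome.

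Mitochondrially encoded RNA took a larger share of the reads after both siRNAs. The 8 clusters held 4.62% of the reads in gene clusters after both siRNAs (exact 95% binomial interval 4.61 to 4.63), 3.91% after Ptbp1 siRNA (3.90 to 3.91) and 3.67% in control cells (3.66 to 3.68). The sum over gene clusters includes the nuclear copy Gm10925. The nuclear members held 1.63%, 1.57% and 1.57% of the reads in gene clusters in the same libraries. The ratio of mitochondrial to nuclear subunit reads was 2.83 after both siRNAs, 2.49 after Ptbp1 siRNA and 2.34 in control cells. Without mt-Co1, which held the most reads of the 8 clusters in every library, the mitochondrial share was 3.24%, 2.52% and 2.23%. The reads listed at Gm10925 were not counted as mitochondrial, and how the authors placed reads that match both places is not stated. This ranking and these shares therefore hold only for reads listed on the mitochondrial chromosome.

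On the log2(CPM + 1) scale, the median difference between both siRNAs and control was 0.43 over the 8 mitochondrial clusters and -0.01 over the 76 nuclear members that reached 1 CPM in the higher library. The gap between the mitochondrial and nuclear medians was 0.45. Of the mitochondrial clusters 7 of 8 lay above 0, and of the nuclear members 37 of 76, while among all 13301 genes tested 49.5% lay above 0 and the median was -0.01. Here and below, the 8 clusters lie on the same chromosome and were read in the same libraries, so they are not 8 independent genes. The nuclear median was small enough for its sign to depend on scaling: it was 0.05 with library totals and 0.06 with totals taken without the mitochondrial clusters. The mitochondrial median stayed above 0 with each scaling used, between 0.43 and 0.51.

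After Ptbp1 siRNA alone, the gap was smaller. The mitochondrial median difference from control was 0.04, with 5 of 8 clusters above 0, and the nuclear median was -0.09, with 18 of 76 members above 0 against 48.2% of all genes tested. Between both siRNAs and Ptbp1 siRNA the mitochondrial median difference was 0.34, with 8 of 8 clusters above 0, and the nuclear median was 0.08, with 49 of 76 above 0 against 50.6% of all genes. These 3 comparisons share libraries, so their values are not independent of each other.

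**Figure D1:**
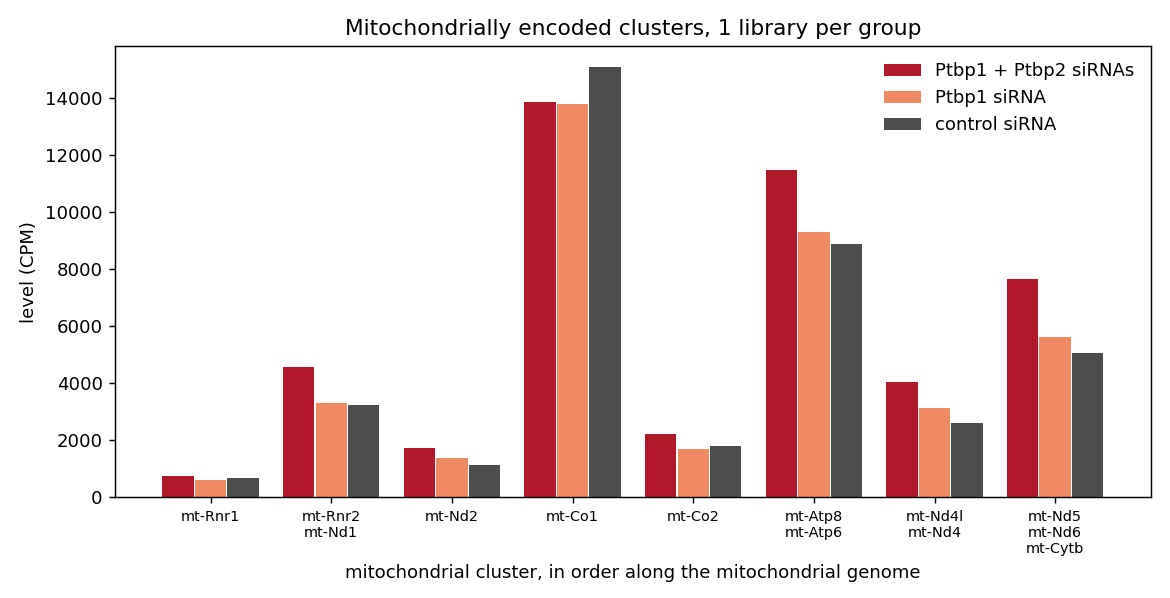
Level in CPM (vertical axis) of each mitochondrial cluster (horizontal axis, in order along the mitochondrial genome) in the libraries of both siRNAs, Ptbp1 siRNA and control siRNA, 1 bar per library. Both siRNAs gave the highest bar for 7 of 8 clusters, and mt-Co1 was highest in control cells at 15069 CPM.

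The mitochondrial clusters did not differ from control by the same amount. The complex I genes differed most. mt-Nd4l with mt-Nd4 had 4025 CPM after both siRNAs, 3139 CPM after Ptbp1 siRNA and 2611 CPM in control cells, a 1.54-fold level after both siRNAs relative to control (95% counting interval 1.52 to 1.56). mt-Nd2 had 1718, 1377 and 1139 CPM in those libraries, a 1.51-fold level after both siRNAs relative to control (1.48 to 1.54). In both clusters the level ran in the order both siRNAs, Ptbp1 siRNA, control.

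The cluster of mt-Nd5, mt-Nd6 and mt-Cytb, which joins complex I genes to the only complex III subunit of the mitochondrial genome, had 7648 CPM after both siRNAs, 5612 after Ptbp1 siRNA and 5046 in control cells. Its difference between both siRNAs and control was 0.60, and with the mt-Nd4l/mt-Nd4 and mt-Nd2 clusters it made up the 3 of 8 mitochondrial clusters that were higher by at least 1.5-fold, where 7.46% of all genes tested were. The cluster of mt-Rnr2 and mt-Nd1, the large ribosomal RNA and a complex I subunit, had 4584, 3289 and 3245 CPM. Its difference was 0.50 between both siRNAs and control and 0.02 between Ptbp1 siRNA and control.

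Complex IV and V genes of the mitochondrial genome differed less. mt-Atp8 with mt-Atp6, subunits of the membrane part of ATP synthase, had 11476 CPM after both siRNAs, 9290 after Ptbp1 siRNA and 8888 in control cells, a difference of 0.37 between both siRNAs and control. mt-Co2, the subunit that takes electrons from cytochrome c, had 2212, 1689 and 1781 CPM, a difference of 0.31. mt-Co1, the catalytic subunit of cytochrome c oxidase, was the exception.

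mt-Co1 had 13842 CPM after both siRNAs, 13797 after Ptbp1 siRNA and 15069 in control cells. Its difference from control was -0.12 after both siRNAs and -0.13 after Ptbp1 siRNA, and it was the only mitochondrial cluster below 0 after both siRNAs. Of the reads listed on the mitochondrial chromosome, without those at Gm10925, mt-Co1 made up 29.9% after both siRNAs, 35.6% after Ptbp1 siRNA and 39.2% in control cells. mt-Rnr1, the small ribosomal RNA, lay between these groups with 750, 602 and 671 CPM and a difference of 0.16 between both siRNAs and control. The libraries were selected for poly(A)+ RNA, so the ribosomal values describe what that selection kept.

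No nuclear member rose by 2-fold in any pair, and 1 fell. Among the 76 tested, 0 were called higher and 1 lower after both siRNAs relative to control, where 1.11% of all genes tested were called higher and 2.67% lower. After Ptbp1 siRNA relative to control 0 were called in each direction, where 0.28% and 0.461% of all genes were. In the pair of both siRNAs and Ptbp1 siRNA 0 were called higher and 1 lower, where 0.105% and 0.331% were. A call here means a 2-fold difference in CPM + 1 with a counting interval of the ratio that leaves out 1.

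With the limit at 1.5-fold, 1 nuclear member was called higher and 3 lower after both siRNAs relative to control, where 7.46% and 9.86% of all genes were. After Ptbp1 siRNA the counts were again 0 and 0, where 2.95% and 3.48% of all genes were called. For both siRNAs against Ptbp1 siRNA 2 members were called higher and 2 lower, where 1.91% and 3.41% were. The share of members was above that of all genes for 2 of these counts, the 1 of 76 lower by 2-fold and the 2 of 76 higher by 1.5-fold between both siRNAs and Ptbp1 siRNA, each of which rests on 1 or 2 genes. Small differences were still measurable by counting error, in the members as in genes at large. After both siRNAs relative to control the interval lay above 1 for 28 of 76 nuclear members and below 1 for 33. Among all 13301 genes tested it lay above 1 for 3943 and below 1 for 4210.

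**Figure D2:**
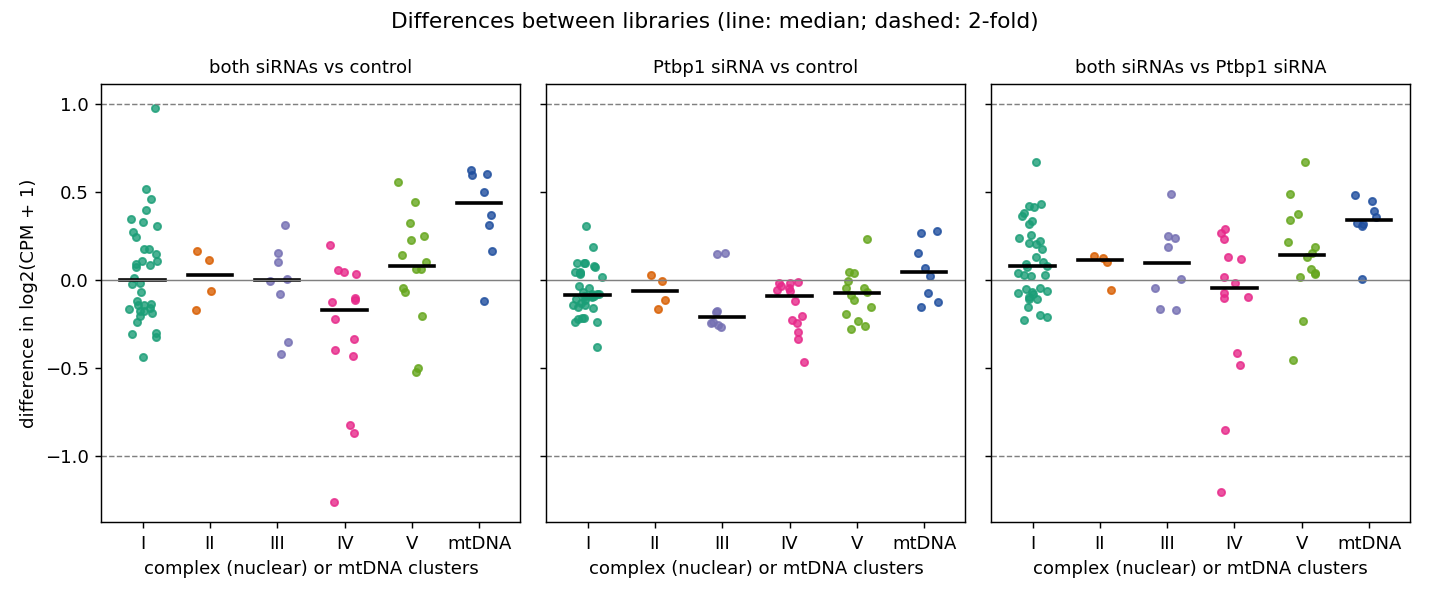
Difference in log2(CPM + 1) (vertical axis) for each tested nuclear member by complex and for the mitochondrial clusters (mtDNA), in 3 panels, 1 per pair of libraries. Points are genes or clusters, black lines are medians and dashed lines mark 2-fold. After both siRNAs relative to control the median is highest for mtDNA at 0.43 and lowest for complex IV at -0.17.

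Complex I, the proton-pumping NADH dehydrogenase, had a median difference of 0.00 between both siRNAs and control, with 18 of 36 members above 0. It was -0.09 between Ptbp1 siRNA and control, with 12 of 36 above 0, and 0.08 between both siRNAs and Ptbp1 siRNA, with 23 of 36 above 0. The subgroups below were drawn after the values had been seen and are given as a description. The 7 core subunits, the Ndufs and Ndufv proteins that carry flavin and iron-sulfur clusters, had a median of -0.16 after both siRNAs relative to control. The 13 Ndufa members had a median of -0.02 and the 10 Ndufb members, most of which sit in the membrane arm, one of 0.00.

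Ndufa5, an accessory subunit of the peripheral arm, differed more from control than any other nuclear complex I gene. Its cluster lies on the minus strand at chr6:24468667-24477688, and it had 1686 reads or 118.5 CPM after both siRNAs, 1262 reads or 74.2 CPM after Ptbp1 siRNA, and 916 reads or 59.9 CPM in control cells. The level after both siRNAs was 1.98-fold that of control cells (95% counting interval 1.82 to 2.15), just short of the 2-fold limit. The differences were 0.97 between both siRNAs and control, 0.30 between Ptbp1 siRNA and control and 0.67 between both siRNAs and Ptbp1 siRNA. The first passes 2-fold with library totals, which give 1 member called higher. Only 0.57% of its transcript's 36-base windows occur elsewhere in the genome.

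Next in complex I came Ndufv2, a core iron-sulfur subunit, with 201.8 CPM after both siRNAs, 150.6 after Ptbp1 siRNA and 141.0 in control cells. Its difference between both siRNAs and control was 0.51, the highest of the core subunits, and Ndufs1, the largest of them, was next at 0.18. Ndufa12, an accessory subunit added late in assembly, had 200.4, 153.7 and 145.7 CPM, a difference of 0.46. Neither passed 1.5-fold. At the low end was Ndufa6, an accessory subunit of the LYR family, with 103.5 CPM after both siRNAs, 120.0 after Ptbp1 siRNA and 140.4 in control cells, a difference of -0.44. Ndufv3 was at -0.32 and Ndufa1 at -0.31.

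After Ptbp1 siRNA alone the complex I gene furthest below control was Ndufa1, a small membrane-arm subunit encoded on the X chromosome, with 94.6 CPM against 123.9 CPM in control cells, a difference of -0.39. Ndufa5 was the highest at 0.30 and Ndufa8, at 76.0 CPM against 66.8 CPM in control cells, came next at 0.18. Ndufs6, an accessory subunit that binds zinc, came next after Ndufa5 at 0.43 between both siRNAs and Ptbp1 siRNA, and Ndufb8 was lowest at -0.23. The nuclear medians can be set beside the mitochondrial genes of the same complex. After both siRNAs relative to control, mt-Nd2 was at 0.59 and mt-Nd4l/mt-Nd4 at 0.62, where the complex I nuclear median was 0.00 and only Ndufa5 of the 36 exceeded them.

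Complex II, succinate dehydrogenase, has no mitochondrially encoded subunit and its genes stayed close together. All 4 lay between -0.17 and 0.16 after both siRNAs relative to control. Sdhb, the iron-sulfur subunit, had 459.1 CPM after both siRNAs, 418.1 after Ptbp1 siRNA and 410.2 in control cells. Sdha, the flavoprotein that oxidizes succinate, had 212.8, 221.4 and 240.0 CPM. The membrane anchors Sdhc and Sdhd were at -0.06 and 0.11. The median was 0.02 after both siRNAs and -0.06 after Ptbp1 siRNA relative to control, and the second value was 0.01 with library totals.

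Complex III, the cytochrome bc1 complex, had a median of 0.00 after both siRNAs relative to control, -0.21 after Ptbp1 siRNA relative to control, and 0.09 between both siRNAs and Ptbp1 siRNA. After Ptbp1 siRNA 6 of its 8 genes were below control. The exceptions were Uqcrc1, a matrix-side core protein, with 409.2 CPM after both siRNAs, 423.3 after Ptbp1 siRNA and 382.2 in control cells, and Uqcrq, with 324.3, 323.4 and 291.5 CPM. Uqcrfs1, the Rieske iron-sulfur protein, had 157.4, 138.5 and 166.8 CPM, the lowest level being that after Ptbp1 siRNA.

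The small subunit Uqcr10 had 148.0 CPM after both siRNAs, 166.4 after Ptbp1 siRNA and 198.8 in control cells, a difference of -0.42 between both siRNAs and control. Uqcr11, another small subunit, was at -0.35 in the same pair, and 50.7% of its transcript windows also occur elsewhere in the genome. Uqcrb, which lies next to the quinone site, was the highest at 0.31, with 231 reads after both siRNAs, 192 after Ptbp1 siRNA and 197 in control cells. Of the Uqcrb windows 71.8% also occur elsewhere, so its value and that of Uqcr11 are uncertain. Uqcrb stood at 0.49 and Uqcrc2, a core protein, at 0.25 between both siRNAs and Ptbp1 siRNA.

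Complex IV, cytochrome c oxidase, stood lowest among the complexes after both siRNAs. Its median difference from control was -0.17, with 4 of 14 tested members above 0, and after Ptbp1 siRNA it was -0.09 with 0 of 14 above 0. In the pair of both siRNAs and Ptbp1 siRNA it was -0.05, with 6 of 14 above 0. The remaining 3 genes, Cox6a2, Cox8b and Cox8c, did not reach 1 CPM in any library. Counted by role, the 10 widely expressed forms had a median of -0.11 after both siRNAs relative to control. The 4 tested forms of restricted expression, Cox4i2, Cox6b2, Cox7a1 and Cox7b2, had one of -0.85 with 0 above 0. Of these Cox6b2 passed the limit of 1 CPM only through the libraries where it was high, with 0.91 CPM after both siRNAs. The untested restricted form Cox6a2 was at 0.17, on 6 reads after both siRNAs and 4 in control cells. This division by role was also made after the values had been seen.

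Cox6b2 was the nuclear member that fell furthest. It encodes a form of subunit 6b known from testis and lies at chr7:4703397-4704697 on the minus strand. It had 13 reads after both siRNAs, 58 after Ptbp1 siRNA and 55 in control cells, that is 0.91, 3.41 and 3.60 CPM. The level after both siRNAs was 3.94-fold lower than in control cells (95% counting interval 2.12 to 7.85) and 3.73-fold lower than after Ptbp1 siRNA (2.02 to 7.42). On the log2 scale the differences were -1.26 and -1.20, and between Ptbp1 siRNA and control -0.06. With so few reads the call depends on the pseudocount: with 5 CPM added in place of 1 CPM the difference between both siRNAs and control was -0.54. Its widely expressed partner Cox6b1 had 157.8 CPM after both siRNAs, 129.1 after Ptbp1 siRNA and 153.2 in control cells.

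Cox4i2, the form of subunit 4 known from lung and induced by low oxygen, had 146 reads after both siRNAs, 329 after Ptbp1 siRNA and 300 in control cells. At 10.3, 19.3 and 19.6 CPM, its level after both siRNAs was 1.91-fold lower than in control cells (1.56 to 2.35), a difference of -0.87, and 1.88-fold lower than after Ptbp1 siRNA (1.55 to 2.31), a difference of -0.85. It was called lower at 1.5-fold in both pairs and not at 2-fold. Cox4i1, the widely expressed form, had 600.9, 608.6 and 701.3 CPM. Set per length, Cox4i2 made up 1.49% of the summed level of both forms after both siRNAs, 2.74% after Ptbp1 siRNA and 2.42% in control cells.

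Cox7a1, the heart and muscle form of subunit 7a, had 18 reads after both siRNAs, 37 after Ptbp1 siRNA and 46 in control cells. Its difference between both siRNAs and control was -0.82, called lower at 1.5-fold, and between Ptbp1 siRNA and control it was -0.34 with an interval of the ratio that held 1 (0.456 to 1.14). Cox7a2, the widely expressed form, had 95.5, 79.4 and 93.4 CPM in the same libraries. Of 7 markers of striated muscle 5 were tested, with a summed level of 18.76 CPM after both siRNAs, 15.99 CPM after Ptbp1 siRNA and 16.80 CPM in control cells. The defining markers Ckm and Mb had at most 7 reads in any library. Their part in the Cox7a1 result was not tested. Cox6a2, the muscle form of subunit 6a, had 6, 8 and 4 reads, Cox8b, a further muscle form, 0, 1 and 0 reads, and Cox8c, a testis form, 0 reads in every library. A count of 0 allows 0.211 CPM after both siRNAs, 0.176 after Ptbp1 siRNA and 0.196 in control cells.

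**Figure D3:**
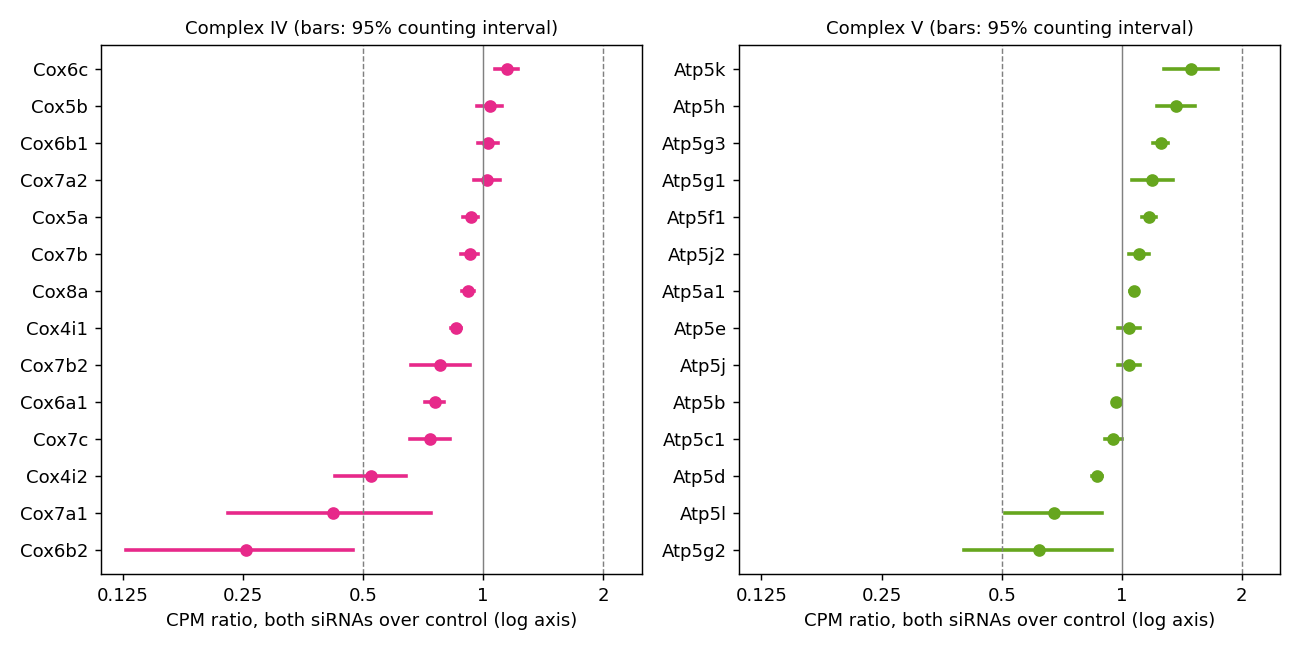
CPM ratio of both siRNAs over control (horizontal axis, log scale) for the tested nuclear members of complex IV on the left and complex V on the right, with 95% counting intervals as bars. Dashed lines mark 2-fold. Cox6b2, Cox7a1 and Cox4i2 lie furthest left, at 0.254, 0.421 and 0.523, and Atp5k lies furthest right at 1.49.

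Among the widely expressed complex IV genes the values were closer together. Cox7c, a small membrane subunit, had 35.7 CPM after both siRNAs, 48.0 after Ptbp1 siRNA and 48.6 in control cells, a difference of -0.43 between both siRNAs and control. Cox6a1, a regulatory subunit of the dimer interface, had 162.1, 174.1 and 214.4 CPM, a difference of -0.40. Cox6c was the highest of the complex at 0.20, with 126.1, 107.2 and 110.0 CPM. None of these passed 1.5-fold. Of the Cox7c windows 31.4% and of the Cox6a1 windows 20.3% occur elsewhere in the genome, so these values are uncertain. After Ptbp1 siRNA relative to control the lowest were Cox7b2, a form known from testis, at -0.47 and Cox7a1 at -0.34, followed by Cox6a1 at -0.30, and the highest was Cox7b at -0.01. With library totals 6 genes of the complex, Cox4i2, Cox5b, Cox6c, Cox7b, Cox7c and Cox8a, were above 0 in that pair, by at most 0.06. The highest between both siRNAs and Ptbp1 siRNA were Cox6b1 at 0.29 and Cox7a2 at 0.26. The mitochondrially encoded partners were at -0.12 for mt-Co1 and 0.31 for mt-Co2.

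Ndufa4 carries a complex I symbol and is now known as a subunit of complex IV. It had 339.0 CPM after both siRNAs, 283.6 after Ptbp1 siRNA and 299.8 in control cells, a difference of 0.18 between both siRNAs and control. Counting it in complex IV gave that complex a median of -0.12 in this pair. Its paralogue Ndufa4l2, known as a target of the hypoxia response and outside the symbol pattern, had 68.7, 111.0 and 177.5 CPM and fell by 1.36 on the log2 scale after both siRNAs relative to control. That difference was called lower at 2-fold, where 2.67% of all genes tested were. Set per length, Ndufa4l2 made up 9.54% of the pair after both siRNAs, 16.9% after Ptbp1 siRNA and 23.5% in control cells.

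Complex V, ATP synthase, stood highest among the nuclear complexes after both siRNAs relative to control, at a median of 0.08 with 9 of 14 above 0. It was -0.08 between Ptbp1 siRNA and control, with 3 of 14 above 0, and 0.14 between both siRNAs and Ptbp1 siRNA, with 12 of 14 above 0. Complex V was divided after the values were seen. After both siRNAs relative to control, the 5 subunits of the catalytic F1 part, central stalk included, had a median of -0.05. The 9 of the peripheral stalk and membrane part had one of 0.23.

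After both siRNAs relative to control the 5 F1 subunits lay between -0.20 and 0.10. After Ptbp1 siRNA relative to control their median was -0.20, with 1 of 5 above 0. The peripheral stalk and membrane part had a median of -0.05 in that pair, with 2 of 9 above 0. Atp5b, the catalytic beta subunit, was the most abundant nuclear member, with 4003 CPM after both siRNAs, 3893 after Ptbp1 siRNA and 4133 in control cells. Atp5d, the delta subunit of the central stalk, had 526.1, 514.9 and 606.5 CPM, a difference of -0.20 between both siRNAs and control. Atp5e, the epsilon subunit, had 138.1, 109.0 and 132.4 CPM, with its lowest level after Ptbp1 siRNA.

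Of the stalk and membrane genes, Atp5k, the e subunit found where ATP synthase forms dimers, was called higher at 1.5-fold between both siRNAs and Ptbp1 siRNA. It had 400 reads or 28.1 CPM after both siRNAs, 295 reads or 17.3 CPM after Ptbp1 siRNA, and 288 reads or 18.8 CPM in control cells. Both siRNAs gave 1.62-fold the level after Ptbp1 siRNA (1.39 to 1.89) and 1.49-fold the level of control cells (1.28 to 1.74). Atp5h, the d subunit of the peripheral stalk, was at 0.44 between both siRNAs and control with 57.9% of its windows found elsewhere. Of the Atp5k windows 24.3% occur elsewhere, so both values are uncertain. Atp5l, the g subunit, was lowest among genes with at least 100 reads, with 86 reads after both siRNAs, 124 after Ptbp1 siRNA and 137 in control cells, and 89.7% of its windows occur elsewhere. Atp5g1 was highest at 0.23 and Atp5e lowest at -0.28 after Ptbp1 siRNA relative to control. The mitochondrially encoded cluster mt-Atp8/mt-Atp6 was at 0.37 between both siRNAs and control and at 0.06 between Ptbp1 siRNA and control.

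The c-ring of ATP synthase is made from 3 nuclear genes that encode the same mature proteolipid behind different import leaders. The first 36 coding bases, from the GENCODE transcripts of mm9, show how far the leaders differ at the DNA level, with the start codon in capitals.
Atp5g1: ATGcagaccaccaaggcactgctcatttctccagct
Atp5g2: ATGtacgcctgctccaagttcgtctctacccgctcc
Atp5g3: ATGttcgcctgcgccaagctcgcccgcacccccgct
These starts occur at 2, 4 and 1 places in the genome for Atp5g1, Atp5g2 and Atp5g3. Atp5g3 made up 97.2% of the summed level per length of the 3 genes after both siRNAs, 95.9% after Ptbp1 siRNA and 96.3% in control cells, and none of its transcript windows occurs elsewhere. Its level was 308.5 CPM after both siRNAs, 237.8 after Ptbp1 siRNA and 246.2 in control cells, a difference of 0.32 between both siRNAs and control. Atp5g1 had 42.7, 42.1 and 35.8 CPM, and 30.6% of its windows occur elsewhere. Atp5g2 had 37 reads, 67 reads and 64 reads in those libraries. All of its windows occur elsewhere in the genome, so its low level and its difference of -0.53 cannot be read as those of this gene alone.

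Levels can be compared between genes per length. In control cells the nuclear members had a median of 131.2 CPM per kb and the mitochondrial clusters one of 1658 CPM per kb, 12.6 times the nuclear median. That multiple was 19.7 after both siRNAs and 15.7 after Ptbp1 siRNA. The highest mitochondrial level per length was that of mt-Atp8/mt-Atp6, at 13630 CPM per kb after both siRNAs, 11033 after Ptbp1 siRNA and 10555 in control cells. The lowest was that of mt-Rnr1, at 958.3, 768.3 and 857.2 CPM per kb. In control cells mt-Rnr1 lay below 2 nuclear members, Atp5b and Cox4i1.

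**Figure D4:**
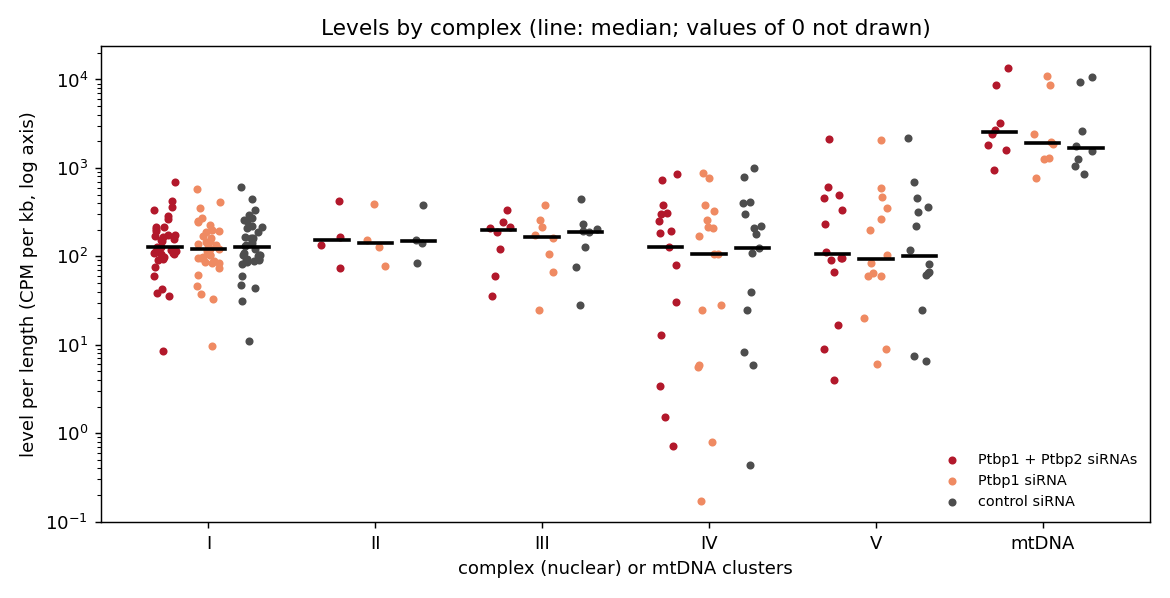
Level per length in CPM per kb (vertical axis, log scale) for each nuclear member by complex and for the mitochondrial clusters (mtDNA), in the libraries of both siRNAs, Ptbp1 siRNA and control siRNA from left to right. Points are genes or clusters, lines are medians over all members, and genes at 0 are not drawn. The spread is widest in complex IV, whose control library values reach 1003 CPM per kb, and in control cells the mtDNA median of 1658 CPM per kb lies above the highest complex median, 190.7 for complex III.

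Within each complex the subunits, which are present in fixed proportions in the assembled protein, differed widely in RNA level. In control cells complex I ran from 11.1 CPM per kb for Ndufb4 to 609.3 for Ndufa4, and complex II from 83.9 for Sdha to 382.3 for Sdhb. Complex III ran from 28.4 for Uqcrb to 450.7 for Uqcr10, and complex V from 6.47 for Atp5g2 to 2200 for Atp5b. Complex IV reached 1003 for Cox4i1 and 787.1 for Cox8a, with Cox8c at 0. The low ends of complexes I, III and V are genes that share much of their sequence with other places: 42.5% of the Ndufb4 windows, 71.8% of the Uqcrb windows and all of the Atp5g2 windows occur elsewhere. The same genes held the low ends after both siRNAs and after Ptbp1 siRNA.

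Short stretches that also occur elsewhere were frequent in these transcripts. For 50 of the 79 nuclear members at least one 36-base window of the transcript, the length of a read here, occurs elsewhere in the genome, and for 30 at least 10% of windows do. Those 30 comprised 11 genes of complex I, 0 of complex II, 3 of complex III, 8 of complex IV and 8 of complex V. Their median level in control cells was 113.6 CPM per kb, and that of the other 49 was 141.3. The authors' treatment of reads that match several places is not stated in the labels or headers. The median difference between both siRNAs and control was 0.01 over these 30 genes and -0.03 over the other 46 tested. Without them complex IV was left with 6 tested genes, 4 of which are the restricted forms, and its median was -0.58.

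The differences of the nuclear members ran with base composition in the pairs that include both siRNAs. Across the 76 tested genes, Pearson's r between the difference from control after both siRNAs and transcript GC content was -0.29 and Spearman's rho -0.39, where across 12160 protein-coding genes they were -0.05 and -0.05. Genes are not independent replicates, and all points come from the same pair of libraries. With all genes cut into 3 equal classes of GC content, the 16 members in the lowest class had a median difference of 0.14, the 32 in the middle one of 0.06 and the 28 in the highest one of -0.15. Over all protein-coding genes the same medians were 0.02, -0.01 and -0.04.

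Between both siRNAs and Ptbp1 siRNA r was -0.32 and rho -0.44 over the members, and -0.18 and -0.19 over all protein-coding genes. Between Ptbp1 siRNA and control r was -0.01 over the members and 0.09 over all protein-coding genes. Subtracting the median difference of genes of like GC content left the nuclear median at -0.02 and the complex IV median at -0.14 after both siRNAs relative to control. Between both siRNAs and Ptbp1 siRNA the complex IV median became 0.01 with that correction. The part of library preparation in this relation was not tested.

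**Figure D5:**
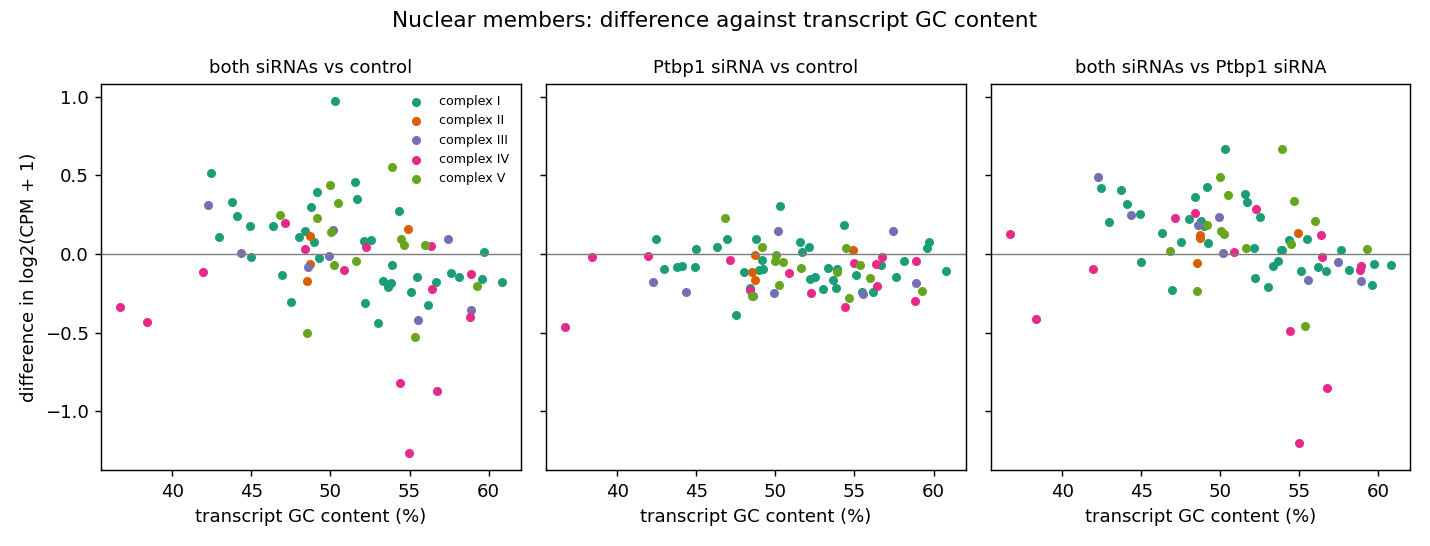
Difference in log2(CPM + 1) (vertical axis) against transcript GC content in percent (horizontal axis) for the tested nuclear members, coloured by complex, in 3 panels, 1 per pair of libraries. After both siRNAs relative to control, members in the highest of 3 GC classes have a median of -0.15 and those in the lowest one of 0.14, and between Ptbp1 siRNA and control these medians are -0.10 and -0.06.

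Promoters of these genes are known for sites of nuclear respiratory factor NRF1, of ETS family factors and of YY1. In the RefSeq promoters of the GRCm38.p6 build, 250 bases before to 50 after the start, 64 of the 79 nuclear members were found by symbol, and the first listed start was read where a gene had several. The NRF1 letters, GCGCA and GCGC with any 1 base between them, were searched on both strands and occurred in 15 of 64 members or 23.4%, against 4.78% of 27025 genes. CCGGAAG, for ETS factors, occurred in 15 of 64 or 23.4%, against 9.12%. AAGATGGCG, for YY1, occurred in 6 of 64 or 9.38%, against 1.49%. These are matches of letters and say nothing of binding in these cells.

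The promoters below are shown for genes whose differences from control after both siRNAs lay on opposite sides of 0, with the NRF1 and ETS letters in capitals. They are those of Ndufa5 (chr6:24527477-24527776, minus strand), at 0.97, and of Cox6a1 (chr5:115348909-115349208, minus strand), at -0.40. Those of the restricted forms Cox6b2 (chr7:4753045-4753344, minus strand), at -1.26, and Cox7a1 (chr7:30183921-30184220, plus strand), at -0.82, follow.
Ndufa5: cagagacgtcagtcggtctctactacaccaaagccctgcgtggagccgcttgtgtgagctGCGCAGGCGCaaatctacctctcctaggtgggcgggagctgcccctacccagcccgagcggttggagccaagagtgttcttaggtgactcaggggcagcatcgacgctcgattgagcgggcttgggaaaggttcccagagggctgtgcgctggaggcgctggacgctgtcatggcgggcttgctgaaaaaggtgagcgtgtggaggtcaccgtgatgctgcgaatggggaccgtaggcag
Cox6a1: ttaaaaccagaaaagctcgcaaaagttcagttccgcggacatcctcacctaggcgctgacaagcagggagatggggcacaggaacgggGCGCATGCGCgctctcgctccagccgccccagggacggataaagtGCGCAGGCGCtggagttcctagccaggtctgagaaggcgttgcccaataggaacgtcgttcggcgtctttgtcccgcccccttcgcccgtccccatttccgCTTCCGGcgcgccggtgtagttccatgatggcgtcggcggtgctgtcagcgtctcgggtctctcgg
Cox6b2: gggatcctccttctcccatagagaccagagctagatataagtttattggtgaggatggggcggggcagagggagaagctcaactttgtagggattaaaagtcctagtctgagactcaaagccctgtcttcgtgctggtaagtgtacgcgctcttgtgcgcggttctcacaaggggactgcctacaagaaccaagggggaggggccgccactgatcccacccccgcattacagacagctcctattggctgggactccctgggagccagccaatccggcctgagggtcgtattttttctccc
Cox7a1: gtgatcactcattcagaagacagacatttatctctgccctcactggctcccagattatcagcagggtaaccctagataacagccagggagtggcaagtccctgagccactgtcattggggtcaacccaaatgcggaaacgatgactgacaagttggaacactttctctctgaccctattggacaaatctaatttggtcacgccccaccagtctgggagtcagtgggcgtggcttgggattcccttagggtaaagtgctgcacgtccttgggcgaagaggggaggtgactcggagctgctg
NRF1 letters stood in the promoters of Ndufa5 and Cox6a1, which differed from control in opposite directions, and in neither of these restricted forms. Over the 15 members with these letters the median difference between both siRNAs and control was 0.10, and over the 48 tested members without them -0.03. These medians were -0.05 and -0.10 between Ptbp1 siRNA and control.

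Genes that act on mitochondrial transcripts were described from lists drawn up with earlier results of these data known. Of 21 tested genes of mitochondrial RNA processing and stability, 17 lay above 0 after both siRNAs relative to control, where 49.5% of all genes did, with a median of 0.31. At 1.5-fold 4 of them were called higher and 0 lower, where 7.46% and 9.86% of all genes were. Fastkd2, an RNA-binding protein needed for mitochondrial ribosome assembly, had 36.1 CPM after both siRNAs, 27.3 after Ptbp1 siRNA and 19.7 in control cells, a difference of 0.84. Elac2, which cuts the 3′ ends of tRNAs out of the long mitochondrial transcripts, had 60.6, 43.4 and 36.7 CPM, a difference of 0.71. The median of the list was 0.11 between Ptbp1 siRNA and control.

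Of 15 tested genes of mitochondrial transcription and replication, 11 lay above 0 after both siRNAs relative to control, with a median of 0.14. At 1.5-fold 3 were called higher and 0 lower, against the same 7.46% and 9.86% of all genes. Tfb2m, an initiation factor of the mitochondrial polymerase, had 25.72 CPM after both siRNAs, 20.04 after Ptbp1 siRNA and 16.08 in control cells, a difference of 0.65. Peo1, the replicative helicase Twinkle, had 51.0, 35.1 and 29.9 CPM, a difference of 0.75. Polrmt, the polymerase itself, was the lowest of the list at -0.11. Prim1, a primase best known from nuclear replication, was the highest at 0.96 and is included in these counts and this median.

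Assembly factors build the complexes and are not part of them. The 9 tested complex I assembly factors had a median of 0.23 after both siRNAs relative to control, with 5 of 9 above 0, beside the median of 0.00 of the complex I subunits. At 1.5-fold 3 were called higher and 0 lower, where 7.46% and 9.86% of all genes were, and the lowest, Nubpl, which delivers iron-sulfur clusters to complex I, was at -0.45. The difference between the assembly factors and the subunits was not tested. Those called were Ndufaf4, with 44.55 CPM after both siRNAs, 31.10 after Ptbp1 siRNA and 25.96 in control cells, Ecsit at 0.65 and Ndufaf2 at 0.63. The 19 tested assembly factors of complexes II to V had a median of 0.21 with 13 of 19 above 0 and 0 called in each direction. The 9 subunits and electron carriers that the symbol pattern leaves out had a median of -0.11, with 3 of 9 above 0. Cyc1, cytochrome c1, was the highest at 0.21 and Ndufa4l2 the lowest at -1.36. Between them, Cox7a2l was at -0.33 and Cycs, cytochrome c, at -0.28. At 2-fold 0 of the 9 were called higher and 1 lower, Ndufa4l2, where 1.11% and 2.67% of all genes were.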

How the data were processed

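Poly(A)+ RNA was read as 36-base pairs from 1 library per group. Per the file headers the authors deposited a read value and an RPKM value for each of 27389 trimmed gene clusters of the mm9 build. The deposited read values are whole numbers that include 38 clusters below 0, so they are net counts, treated here as counts. The aligner, the counting tool and what was subtracted are not given in the sources used here. RPKM, as the authors deposited it, divides by length and by a library total larger than the sum over clusters. Clusters below 0 or without a length were left out, which left 27224, and 1 row was kept per symbol.

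Counts were scaled by TMM to CPM with numpy 2.4.6 and pandas 2.3.3, and differences taken as log2(CPM + 1), which understates the change of low genes. The log2 values were computed here from the deposited read values. Exact 95% intervals of ratios came from scipy 1.17.1, and figures from matplotlib 3.10.9. Genes with at least 1 CPM in the higher library were tested. A call needed a 2-fold difference, or 1.5-fold as the alternative, and an interval that left out 1. With 1 library per group no p-value was computed.

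The method was tested on simulated counts drawn from the levels of the control library at the depth of each library, with 13130 genes tested. Counting error was the only variation, and the changed genes were picked from those with more than 100 control reads. Of these, 100 of 100 genes changed 3-fold were called, and 1 unchanged gene was called at 2-fold. Genes with fewer control reads, such as Cox6b2 and Cox7a1, were not among the changed genes. At 1.5-fold, 43 of 100 genes changed 1.5-fold and 57 unchanged genes were called.

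Members and gene lists were chosen with earlier results of these data known, and the subgroups of complexes I, IV and V after their values had been seen. Genes named with values were the mitochondrial clusters, the 2 highest and 2 lowest members of each complex and pair with at least 100 reads, members that differed 1.5-fold, isoform sets, the extremes of level, and up to 4 genes per further list. Some of these are given only in the summary ranges. Windows of 36 bases were matched exactly to the genome, and those within 5000 bases of the gene were not counted as elsewhere. Promoter sequences are from RefSeq, GRCm38.p6, and other sequences and gene models from mm9.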

Additional observations from a re-analysis of the deposited data

How the results depend on the processing

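With 1 library per group no replicate could be left out. No paired analysis was possible because each group has 1 library. Of the summary values recomputed under the alternatives 370 stayed within a set tolerance and 32 moved, and for the values of single genes the numbers were 1677 and 137. The tolerance of a single gene or a share was its own counting error, and that of counts of calls was 1.5 times. For medians it was the median counting error of single genes, which is wider than the error of a median. The mitochondrial medians and the gap took it from the nuclear members, whose error is wider than that of the mitochondrial clusters. A mitochondrial value scored as staying can therefore have shifted by more than its own counting error. The only member values called at 2-fold, those of Cox6b2 after both siRNAs relative to control and to Ptbp1 siRNA, kept their sign. At 13 reads against 55 and 58, the alternatives could hardly have changed it. Across all values, 16 of 306 recomputed medians and gaps had the other sign, in 5 of 24 results, and the main size of those 5 was at most 0.06. So did 47 of 1814 recomputed differences of single genes, in 19 of 159 results, and the main size of those 19 was at most 0.08. The nuclear median after both siRNAs relative to control was too close to 0 for a direction, at -0.01, against 0.05 with library totals or with the deposited RPKM values and 0.06 with totals without the mitochondrial chromosome. These scalings moved the median of all genes by up to 0.07. The gap between the mitochondrial and nuclear medians stayed between 0.43 and 0.51.

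Members called higher after both siRNAs relative to control numbered 0, and 1 with library totals, 1 with totals without the mitochondrial chromosome, 1 with the deposited RPKM values and 1 at the 1.5-fold limit. Members called lower in that pair numbered 1, and 2 with a pseudocount of 0.1 CPM, 0 with one of 5 CPM, 0 with a filter at 5 CPM and 3 at 1.5-fold. Between both siRNAs and Ptbp1 siRNA, 2 were called higher and 2 lower at 1.5-fold, and 0 lower with the pseudocount or the filter of 5 CPM.

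The complex II median was 0.10 after both siRNAs relative to control with totals without the mitochondrial chromosome. After Ptbp1 siRNA relative to control it was 0.013 with those totals and 0.00996 with library totals. Without the 8 members with exon overlap or several rows, the complex IV median after both siRNAs relative to control was -0.28. Leaving out the 30 members with windows elsewhere, an alternative chosen after seeing the data like the GC correction, the count of Ndufa4 in complex IV and the removal of mt-Co1, gave -0.58. With the GC correction the complex IV median between both siRNAs and Ptbp1 siRNA was 0.01, against -0.05. Leaving out the 30 members gave complex IV -0.25 and complex III 0.0040 between both siRNAs and Ptbp1 siRNA.

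The mitochondrial share was 3.05% after both siRNAs, 2.57% after Ptbp1 siRNA and 2.43% in control cells with the totals behind the RPKM values, and 3.24%, 2.52% and 2.23% without mt-Co1. In control cells the median level of a complex over the nuclear median was 0.960 for complex I, 1.13 for II, 1.45 for III, 0.944 for IV and 0.767 for V. Without members with exon overlap or several rows it was 0.861 for complex I, 1.19 for II, 1.54 for III and 0.665 for V. Without members with windows elsewhere it was 1.05 for complex II, 0.0582 for IV and 2.90 for V. Apart from the members left out, the cause of these shifts was not tested. The mitochondrial clusters do not overlap each other, so counting overlapping ones once left them as they were.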

Other observations

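Mitochondrial ribosomal proteins, which translate the mitochondrially encoded subunits, lay above 0 for 55 of 76 tested genes after both siRNAs relative to control, with a median difference of 0.14. At 2-fold 1 of them was called higher and 0 lower, where 1.11% and 2.67% of all genes were. At 1.5-fold 5 were higher and 0 lower, where 7.46% and 9.86% of all genes were, so the shares called higher were close to those of all genes. Mrpl20, a protein of the large subunit, rose to 94.80 CPM after both siRNAs, with 64.01 after Ptbp1 siRNA and 44.98 in control cells. After Ptbp1 siRNA relative to control the median of the list was 0.02.

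Of 31 tested genes of mitochondrial protein import 24 lay above 0 after both siRNAs relative to control, with a median of 0.20. At 2-fold 1 was called higher and 0 lower, against the same 1.11% and 2.67% of all genes. That gene, Timm8a1, a chaperone of the intermembrane space, had 27.97 CPM after both siRNAs, 20.57 after Ptbp1 siRNA and 13.21 in control cells. Of 14 tested regulators of mitochondrial biogenesis 8 lay above 0, with a median of 0.12. Myc, a transcription factor of growth, had 131.2 CPM after both siRNAs, 66.6 after Ptbp1 siRNA and 58.4 in control cells and was called higher at 2-fold after both siRNAs relative to control. Ppard, a nuclear receptor of fatty acid metabolism, had 44.3, 57.0 and 67.7 CPM and was called lower at 1.5-fold. Of 12 tested carriers and uncoupling proteins 6 lay above 0, with Slc25a10, the dicarboxylate carrier, at 0.69 and Slc25a1, the citrate carrier, at -0.66.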
